A study of Mus musculus with 18 samples.

Results

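The Krüppel-like factors other than the erythroid factor KLF1 were followed as nascent RNA in mouse fetal liver, by taking the rows of the count table whose symbol was Klf2, Klf3, Klf4, Klf6, Klf7, Klf9, Klf10, Klf11, Klf13 or Klf16. All 10 were present among the 54232 gene identifiers of the table, and all 10 passed the filter on low counts. The assay was 4sU-seq, in which cells take up the uridine analogue 4-thiouridine for a short time and the RNA made in that time is pulled down and sequenced. Livers came from C57BL/6 embryos at e12.5 to e13.5, and the sorted cells were rested for 6 h and then given 500 µM 4-thiouridine for 45 min. The 5 erythroid populations were lineage-negative and were separated by CD71, the transferrin receptor, and Ter119, an antigen of maturing red cells: S0-Low (CD71-, Ter119-), S0-Medium (CD71 medium, Ter119-), S1 (CD71 high, Ter119-), S2 (CD71 high, Ter119 medium) and S3 (CD71 high, Ter119 high). The study treats S0-Low as stem and early progenitor cells, and S3 as the most mature population. Lin+ cells are those that carried CD41, CD45R, CD3e, CD11b or Ly-6G/6C, the antigens of the sort. Each population has 3 replicates, 18 libraries in all, and the study calls its replicates biological without saying what a replicate number stands for.

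Krüppel-like factors bind CACCC boxes and GC-rich boxes through zinc fingers at their carboxy end, and differ mostly in the amino-terminal part that recruits cofactors. KLF3 recruits the corepressor CtBP, and its gene is known in erythroid cells as a target of KLF1. KLF9, KLF10, KLF11, KLF13 and KLF16 recruit the corepressor Sin3, while KLF2, KLF4, KLF6 and KLF7 are mostly described as activators, with KLF2 and KLF4 known from myeloid, lymphoid and endothelial cells.

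The genes are scattered over the genome. In GRCm38.p6 (RefSeq) the CtBP partner gene is Klf3 at chr5:64803521-64832901. The Sin3-recruiting group consists of Klf9 at chr19:23141226-23168129, Klf10 at chr15:38291464-38300711, Klf11 at chr12:24651371-24662782, Klf13 at chr7:63886351-63938915 and Klf16 at chr10:80567121-80577296. The group of activators consists of Klf2 at chr8:72319062-72321654, Klf4 at chr4:55527137-55532475, Klf6 at chr13:5861489-5870393 and Klf7 at chr1:64029448-64122345. Read on the gene's own strand, no gene shares more than 0.35% of its 31-base stretches with protein-coding transcripts of other genes; overlap with genes on the opposite strand is given for Klf7 with its values.

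Total counts ranged from 9452476 in S0-Low replicate 3 to 40567976. Levels are given as CPM, counts relative to a common library size after TMM scaling of the 18 libraries, and genes were called where the Benjamini-Hochberg adjusted p of edgeR's quasi-likelihood test was under 0.05 over all tested genes. Marker genes followed the sort: the 6 erythroid markers summed to 415 to 831 CPM in S0-Low, 22025 to 37499 in S3 and 251 to 338 in Lin+. The labels call the Lin+ cells erythroblasts as well, although 9 neutrophil markers summed to 3399 to 6043 CPM there and to at most 2.43 in S3. S0-Low also held transcripts of neutrophil markers, at 340 to 798 CPM, and of macrophage markers, at 46.3 to 110 CPM. Most of that neutrophil sum was Mpo (mean of 499 CPM). Ltf, Camp, Ngp, S100a8 and S100a9 did not pass the filter on low counts in the erythroid libraries. Libraries numbered 3 stood apart for some KLF genes, for Klf3 and Klf9 in all 6 populations, which is described after the comparisons.

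The first question was how the family changed between the least and the most mature erythroid population. Klf3, Klf10, Klf11 and Klf16 were higher in S3 than in S0-Low, Klf4 was lower, and Klf2, Klf6, Klf7, Klf9 and Klf13 did not pass the test. Thus 4 of the 10 genes rose, against 13.4% of the 16555 genes tested, and 1 fell, against 22.4%. In both directions together 5 of 10 were called, against 35.8% of all genes. The median log2 fold change of the 10 genes was 0.72, while that of all genes was -0.54. The calls depended on the scaling: with library totals in place of TMM the median of all genes moved to -1.36, 1 KLF gene was called higher (background 6.98%) and 2 lower (background 37.6%), and Klf9 and Klf13, which were not called, turned from slightly positive to negative.

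**Figure D1:**
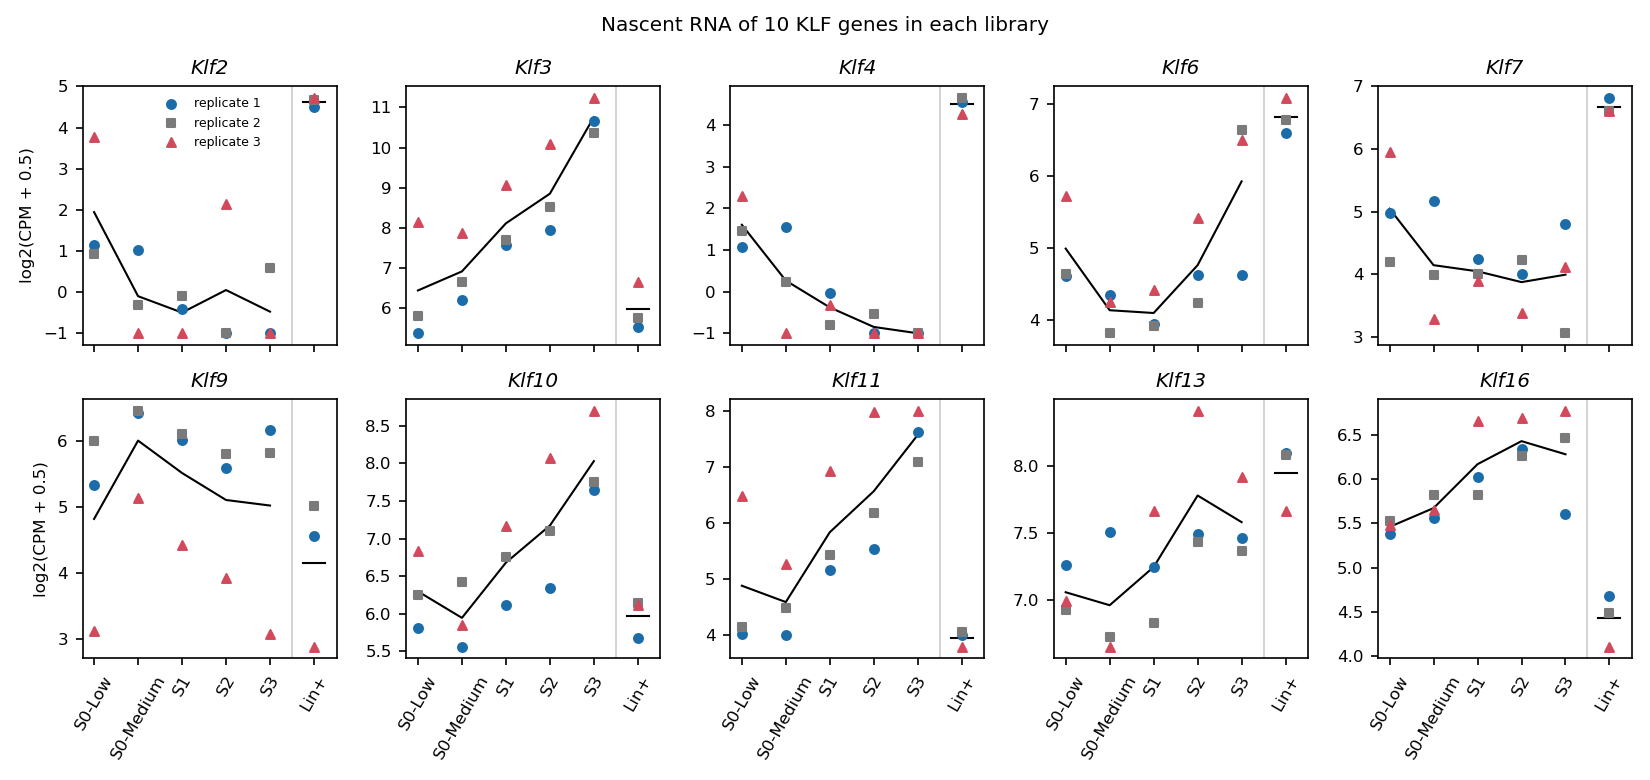
Level of each of the 10 KLF genes, as log2(CPM + 0.5), in the 6 populations, with 1 point for each library marked by its replicate number, a line through the means of the 5 erythroid populations and a bar at the mean of Lin+. Vertical scales differ between panels. Klf3, Klf10 and Klf11 climb towards S3, and Klf4 reaches the bottom of its scale (0 counts). Klf2, Klf4, Klf6, Klf7 and Klf13 have their highest mean in Lin+, where the libraries of Klf6 and Klf13 overlap those of S3.

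Klf3 changed most clearly. Its level in S0-Low was 41.2, 55.4 and 285 CPM in replicates 1, 2 and 3, and in S3 it was 1624, 1324 and 2418 CPM. All 3 S3 libraries were far above all 3 S0-Low libraries, although S0-Low replicate 3 was well above its group. Klf3 was 14.1-fold higher in S3 (log2 fold change 3.81, SE 0.79, edgeR adjusted p = 0.00196). For scale, Klf1 itself had a log2 fold change of 2.93 (SE 0.54, adjusted p = 0.000782). The intermediate populations lay between, with a mean of 137 ± 86.7 CPM in S0-Medium, 312 ± 194 CPM for S1 and 568 ± 455 CPM for S2 (SD, n = 3). Leaving out S0-Low replicate 3 raised the log2 fold change to 5.16, and leaving out S0-Low replicate 1 lowered it to 3.32. The call held under all 17 alternatives tried.

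Promoter windows were read only at the annotated gene start, and which start the cells used was not tested. Those of Klf3, Klf11 and Klf4 are shown, as the windows of 2 genes that rose and of the gene that fell. Each runs from 250 bases before to 50 bases after the start of the gene in RefSeq (GRCm38.p6), read 5′ to 3′ on the gene's strand, which is the plus strand for Klf3 (chr5:64803271-64803570) and Klf11 (chr12:24651121-24651420) and the minus strand for Klf4 (chr4:55532426-55532725). Capitals mark matches on either strand to CCNCNCCC, a motif that covers KLF-type CACCC boxes and overlaps the GC box.
Klf3: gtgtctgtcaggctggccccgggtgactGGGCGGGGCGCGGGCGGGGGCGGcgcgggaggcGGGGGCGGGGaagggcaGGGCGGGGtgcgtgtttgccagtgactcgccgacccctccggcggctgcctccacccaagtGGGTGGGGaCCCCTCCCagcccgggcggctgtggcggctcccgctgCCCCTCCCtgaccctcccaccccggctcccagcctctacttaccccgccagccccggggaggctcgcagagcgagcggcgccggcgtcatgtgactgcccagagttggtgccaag
Klf11: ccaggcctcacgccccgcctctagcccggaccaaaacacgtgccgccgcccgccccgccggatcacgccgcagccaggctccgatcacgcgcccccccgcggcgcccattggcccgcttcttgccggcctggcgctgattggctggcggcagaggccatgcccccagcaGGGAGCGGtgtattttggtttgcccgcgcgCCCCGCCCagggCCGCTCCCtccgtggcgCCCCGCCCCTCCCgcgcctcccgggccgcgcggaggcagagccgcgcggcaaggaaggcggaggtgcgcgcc
Klf4: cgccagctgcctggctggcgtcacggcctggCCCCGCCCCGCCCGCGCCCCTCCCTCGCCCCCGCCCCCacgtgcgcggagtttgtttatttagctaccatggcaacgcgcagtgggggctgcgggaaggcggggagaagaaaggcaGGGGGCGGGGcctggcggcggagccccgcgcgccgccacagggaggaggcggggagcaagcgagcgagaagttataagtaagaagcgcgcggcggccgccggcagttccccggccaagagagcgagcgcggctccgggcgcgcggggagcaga

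The motif CCNCNCCC occurs in 49.5% of the 32817 promoters of this length. The Klf3 window holds 10 matches, overlapping ones included, and only 1.1% of promoters have as many. Klf4 follows with 9 (1.66%), and Klf11 holds 5 (8.16%). The motif is rich in C, and G and C make up 76.7% of the Klf3 window, 74.3% for Klf4 and 77.7% for Klf11. The median over all promoters is 52.7%, and the promoters used for these shares were not matched for base content. Of the other genes with a promoter in the table, Klf7 holds 8, Klf13 holds 5, Klf2 holds 4, Klf6 holds 3 and Klf9 holds 0. The GATA motif AGATAA, present in 11.2% of all promoters, has 0 matches in these 8 windows. The windows of Klf3 and Klf4, the richest of the 8, belong to genes that moved in opposite directions. Any part of the motif in their levels was not tested.

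Among the Sin3-recruiting factors, Klf10 and Klf11 rose and Klf16 rose narrowly. Klf10, known as a gene induced early by TGF-beta, had 55.8, 75.3 and 114 CPM in S0-Low and 200, 214 and 414 CPM in S3. The groups did not overlap. The increase was 3.38-fold (log2 fold change 1.76, SE 0.47, edgeR adjusted p = 0.00926). It did not pass without S3 replicate 3 (adjusted p = 0.0508), without S0-Low replicate 1 (adjusted p = 0.0522) or with library totals (log2 fold change 0.84, adjusted p = 0.135).

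Klf11, the close relative of Klf10 that is also responsive to TGF-beta, had 15.7, 17.1 and 88.8 CPM in S0-Low and 197, 136 and 255 CPM in S3. As with Klf3, S0-Low replicate 3 was the high library of its group, yet it stayed below every S3 library. The increase was 4.84-fold (log2 fold change 2.28, SE 0.75, edgeR adjusted p = 0.0287). The call was lost when S3 replicate 1, S3 replicate 3, S0-Low replicate 1 or S0-Low replicate 2 was left out, with adjusted p from 0.0522 to 0.111 and log2 fold changes from 1.82 to 2.27. Without S0-Low replicate 3 the log2 fold change was 3.53 (adjusted p = 0.00427). With a replicate block, although the replicate numbers were not taken to pair these samples, it was 2.77 (edgeR adjusted p = 6.94e-05). With library totals it was 1.35 and not called (adjusted p = 0.147), and it also missed the threshold with only the compared populations (adjusted p = 0.0651) and when 10 counts were required in each of their libraries (adjusted p = 0.0538).

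Klf16 was the most even gene of the family in S0-Low, at 41.1, 45.5 and 44.1 CPM, and had 48.4, 87.6 and 108 CPM in S3. All S3 libraries were higher, but S3 replicate 1 only slightly. The 1.87-fold difference passed narrowly (log2 fold change 0.90, SE 0.34, edgeR adjusted p = 0.0496) and held in only 5 of 17 alternatives. Leaving out any library other than S3 replicate 1 ended the call (adjusted p from 0.0996 to 0.196), as did DESeq2 (adjusted p = 0.0502) and library totals (log2 fold change 0.02). Klf16 was already at 86.3 ± 14.1 CPM in S2 (SD, n = 3).

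Klf13, a broadly expressed member, changed little in level, at 133 ± 16.8 CPM in S0-Low and 193 ± 41.1 CPM in S3 (SD, n = 3). Its libraries did not overlap between these populations, but the log2 fold change of 0.54 (SE 0.35) was not called (adjusted p = 0.236). Klf9, which is known as a target of glucocorticoid and thyroid hormone receptors, had 39.8, 63.0 and 8.22 CPM in S0-Low and 71.0, 55.9 and 7.93 CPM in S3. The groups overlapped, with or without replicate 3, which was far below the other libraries in both populations, and the log2 fold change of 0.28 (SE 0.78) was not called (adjusted p = 0.803).

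Of the genes described as activators, Klf4 fell, and Klf2 was at 0 counts in most S2 and S3 libraries without a call. Klf4, known for monocyte differentiation and for reprogramming, had 62, 90 and 53 counts in S0-Low (1.60, 2.24 and 4.40 CPM) and 0 counts in all 3 S3 libraries. S0-Medium held 106, 29 and 0 counts, S1 held 19, 3 and 9, and S2 held 0, 7 and 0. Against a floor of 3 counts per library, Klf4 was at least 15.4-fold lower in S3 than in S0-Low (edgeR adjusted p = 0.0183). Without S3 replicate 3 the adjusted p was 0.052. In such sorted pools fewer cells of a type and less RNA per cell cannot be told apart, and neutrophil and macrophage markers fell over the same populations. Of 8 macrophage markers in the table, 6 were at 0 in every S3 library, but C1qa, C1qc and Cd14 were at 0 in every S0-Low library as well and C1qb was at most 0.0998 CPM there, so that only Csf1r and Lyz2 reached 0 from a clear level (means of 37.4 and 29.7 CPM in S0-Low). Of the neutrophil markers, Mpo went from a mean of 499 CPM in S0-Low to 0.477 CPM in S3. Ltf, Camp, Ngp, S100a8 and S100a9 did not pass the filter in the erythroid libraries. The erythroid populations were sorted as negative for CD11b and Ly-6G/6C. The part of neutrophils or macrophages in the Klf4 result was not tested.

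Klf2, which keeps lymphocytes and endothelium quiescent and also acts on embryonic globin genes, had 1.71, 1.40 and 13.1 CPM in S0-Low. In S3 it had 22 counts in replicate 2 (0.99 CPM) and 0 in the other libraries, so the groups did not overlap. The difference was not called (log2 fold change -3.98, SE 2.50, adjusted p = 0.223). Klf2 was uneven throughout the series, with 86 counts in S2 replicate 3 (3.95 CPM) and 0 in the other S2 libraries.

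Klf6, an early response gene of many cell types, had its lowest means in S0-Medium and S1, without a call at the steps around them. It had 23.8, 24.5 and 52.2 CPM in S0-Low, between 13.6 and 20.8 CPM in the 6 libraries of S0-Medium and S1, and 24.2, 99.0 and 90.1 CPM in S3. S3 replicate 1 was level with S0-Low while the other S3 libraries were higher. The difference between the ends was not called (log2 fold change 1.09, SE 0.53, adjusted p = 0.117), and was called when S3 replicate 1 was left out (log2 fold change 1.49, adjusted p = 0.0249). Klf7, best known from neurons, had 31.2, 17.9 and 61.3 CPM in S0-Low and 27.4, 7.84 and 16.9 CPM in S3, and the groups overlapped. Its log2 fold change of -1.08 (SE 0.63) was not called with TMM (adjusted p = 0.185) and was called with library totals (log2 fold change -1.92, adjusted p = 0.0288). The value of Klf7 is uncertain, since 39.4% of its annotated exon bases lie opposite exons of 2 genes on the other strand and whether the counting used strand is not given in the sources used here.

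The steps between neighbouring populations gave no calls among these genes with population as the only factor. Up to S2, at each of the 3 steps, 0 of 10 passed edgeR's test, and so did 0% of all genes (539, 1135 and 667 genes at an unadjusted p under 0.05, with none of the 10 KLF genes among them). With a replicate block, since the replicate numbers paired the samples at these steps, 22 genes were called upward and 1 downward at the step into S0-Medium, 28 upward and 29 downward at the step into S1, and 0 at the step into S2. None of the 10 KLF genes was among the called genes, although Klf9 reached an unadjusted p under 0.05 at the first step, Klf3, Klf10 and Klf11 at the second and Klf3 and Klf11 at the third (lowest adjusted p 0.132, for Klf3 between S1 and S0-Medium cells, in edgeR). From S2 to S3, 0 of 10 passed, against 3.26% of all genes higher and 6.09% lower (9.35% together). At an unadjusted p under 0.05 the S2 to S3 step held 2 of the 10, Klf6 and Klf3. Klf3 did not overlap between S2 (246, 369 and 1088 CPM) and S3 and had a log2 fold change of 1.66 (SE 0.73, adjusted p = 0.160), which became 2.53 (adjusted p = 0.0479) without S2 replicate 3. Klf6 had a log2 fold change of 1.34 (SE 0.53, adjusted p = 0.122), and 1.74 (adjusted p = 0.0339) without S3 replicate 1. DESeq2 called Klf6 alone at this step. With a replicate block edgeR called Klf3 (log2 fold change 1.98, adjusted p = 0.000861) and Klf10 (0.85, adjusted p = 0.0452). Of all genes 7.3% were then higher and 11.3% lower, and the replicate numbers were not taken to pair these samples.

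A joint test of any difference among the 5 erythroid populations called Klf3 (adjusted p = 0.00279), Klf10 (adjusted p = 0.0117), Klf6 (adjusted p = 0.0251) and Klf11 (adjusted p = 0.0332). That is 4 of 10 genes, against 24.6% of all genes. Klf6 entered here although no pair of neighbours and not the ends passed. Klf4 (adjusted p = 0.0594) and Klf16 (adjusted p = 0.119) missed the threshold, but Klf4 was called with DESeq2, RLE factors, library totals, no filter or all 18 libraries. With library totals the calls were Klf3 and Klf4 alone, and with RLE factors Klf11 was not called. Klf6 was not called without the libraries numbered 3, and Klf11 was not called where 10 counts were required in every library.

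**Figure D2:**
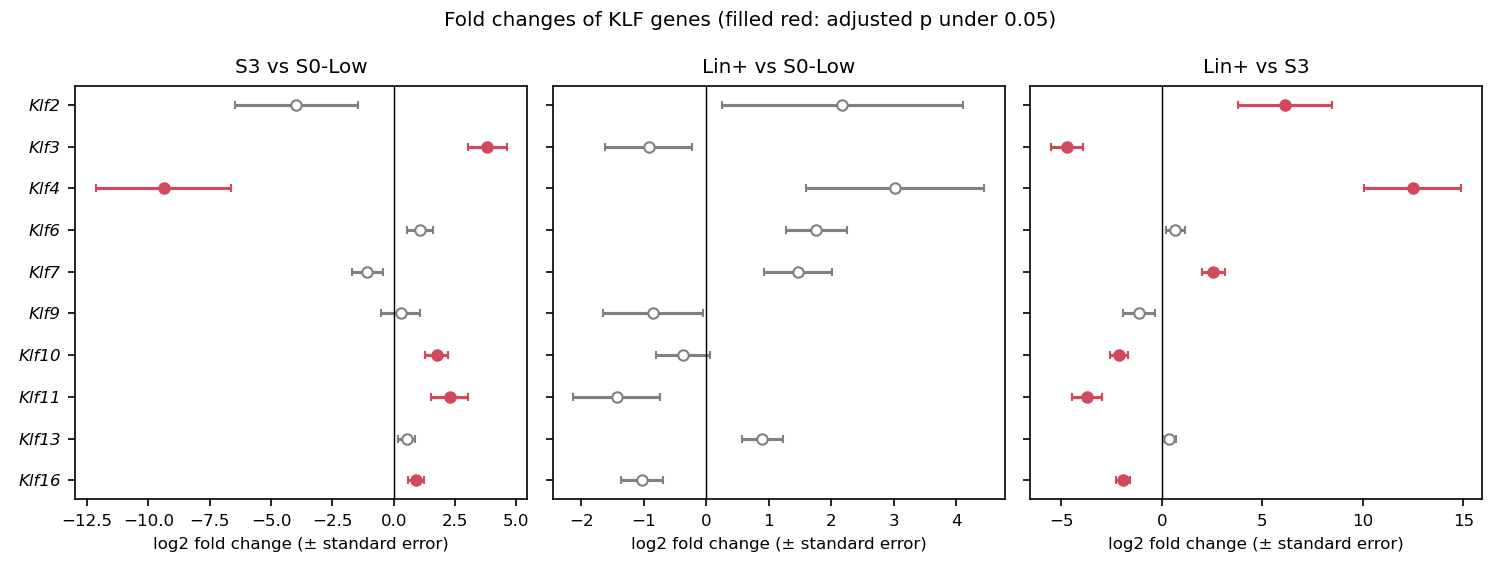
Log2 fold change of each of the 10 KLF genes with its standard error in S3 against S0-Low, Lin+ against S0-Low and Lin+ against S3 (edgeR), with filled red points for an adjusted p under 0.05; horizontal scales differ between panels. Klf3, Klf10, Klf11 and Klf16 lie to the right in S3 against S0-Low and to the left in Lin+ against S3; the fitted values of Klf4 against S3 rest on 0 counts in S3 and are not sizes of a change.

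The next comparisons set the Lin+ cells against both ends of the erythroid series. Compared with S3, Klf2, Klf4 and Klf7 were higher in Lin+ and Klf3, Klf10, Klf11 and Klf16 were lower, while Klf6, Klf9 and Klf13 were not called. These are 3 of 10 higher, against 28.2% of 17755 tested genes, and 4 of 10 lower, against 14.1%, or 7 of 10 against 42.2% in both directions. The median log2 fold change was -0.39 for the 10 genes and 0.69 for all genes. The comparison shares its S3 libraries with the one of the erythroid ends.

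Klf4 had 23.1, 24.7 and 18.8 CPM in Lin+ and was at least 125-fold higher there than in S3 (edgeR adjusted p = 0.000834). Klf2 had 22.2, 24.9 and 25.9 CPM in Lin+, close together in all 3 libraries. Its log2 fold change of 6.13 (SE 2.33) was called with an adjusted p of 0.0424, but not when any 1 library other than S3 replicate 2 was left out (adjusted p from 0.0651 to 0.107). Klf7 had 112, 96.3 and 96.2 CPM in Lin+, above all 15 erythroid libraries, and was 5.85-fold higher than in S3 (log2 fold change 2.55, SE 0.57, adjusted p = 0.00183). Macrophage markers summed to 824 to 1023 CPM in Lin+ and to 0 to 4.37 CPM in S3, and endothelial markers had a median sum of 207 CPM in Lin+ and 9.71 CPM in S3. Stem and progenitor markers summed to 1461 to 2124 CPM in Lin+ and to 28.3 to 29.5 CPM in S3. Megakaryocyte and platelet markers summed to 402 to 1162 CPM in Lin+ and to 55.5 to 115 CPM in S3. The part of any such cell type in the level of Klf2, Klf4 or Klf7 was not tested.

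Klf3 had 45.6, 53.8 and 101 CPM in Lin+ and was 26.7-fold lower than in S3 (log2 fold change -4.74, SE 0.80, edgeR adjusted p = 0.000184). Klf11 had 15.4, 15.99 and 13.3 CPM there and was 13.1-fold lower (log2 fold change -3.72, SE 0.76, adjusted p = 0.000871). Klf10 was 4.37-fold lower (log2 fold change -2.13, SE 0.45, adjusted p = 0.00117) and Klf16 3.82-fold lower (log2 fold change -1.93, SE 0.34, adjusted p = 0.000248). None of these 4 genes overlapped between Lin+ and S3, and their calls held under all 16 alternatives tried, as did that of Klf7.

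Compared with S0-Low, 0 of 10 genes were called in Lin+ by edgeR, against 0.496% of all genes higher and 0.22% lower (0.715% together). At an unadjusted p under 0.05 there were 4 of 10 KLF genes and 1748 of all genes. Klf6 came nearest: at 96.1, 108 and 135 CPM in Lin+ it lay above every S0-Low library (log2 fold change 1.76, SE 0.49, adjusted p = 0.118), and DESeq2 called it (adjusted p = 0.0221). Klf16, at 25.2, 22.0 and 16.8 CPM, lay below every S0-Low library (log2 fold change -1.03, SE 0.33, adjusted p = 0.201). Klf7 (log2 fold change 1.47, SE 0.55, adjusted p = 0.312) and Klf13 (log2 fold change 0.90, SE 0.33, adjusted p = 0.299) were the others at an unadjusted p under 0.05.

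Levels of different genes were compared per kilobase of annotated exon. On this scale Klf3 had the highest mean in all 5 erythroid populations and Klf13 in Lin+. In S0-Low that place rested on replicate 3: Klf3 had 15.8, 21.2 and 109 CPM per kb in replicates 1, 2 and 3, and Klf13 had 23.1, 18.3 and 19.2, so that Klf13 was above Klf3 in replicate 1. The summed level of the 10 genes was 144 ± 71.9 CPM per kb in S0-Low and 142 ± 19.9 in S0-Medium (SD, n = 3). It was 236 ± 101 in S1 cells, 378 ± 242 in S2 cells and 896 ± 266 in S3 cells, and 157 ± 7.80 in Lin+ cells. The S2 libraries stood at 206, 273 and 654, so the S2 mean rested on replicate 3. Klf3 made up 28.0% ± 17.5 of this sum in S0-Low (16.5%, 19.4% and 48.1% in replicates 1, 2 and 3, so that replicate 3 sets the mean), 53.7% ± 9.12 in S2 and 76.1% ± 2.78 in S3, and 16.1% ± 6.67 in Lin+. The share of Klf13 was 16.5% ± 7.82 in S0-Low, 3.32% ± 0.27 in S3 and 24.0% ± 4.71 in Lin+, so that its nearly level signal became a small part of the family in S3.

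In S3 the order per kilobase was Klf3, Klf10, Klf11, Klf16, Klf13, Klf6, Klf9, Klf7, Klf2 and Klf4. Klf3 stood clear of Klf10, Klf13 of Klf6 and Klf7 of Klf2, while the other neighbours overlapped over their libraries. In S0-Low only Klf13 and Klf16 did not overlap as neighbours, and even Klf3 and Klf10 did. In Lin+ the order was Klf13, Klf6, Klf3, Klf10, Klf2, Klf7, Klf16, Klf4, Klf9 and Klf11, and only Klf7 and Klf16 stood clear of each other.

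**Figure D3:**
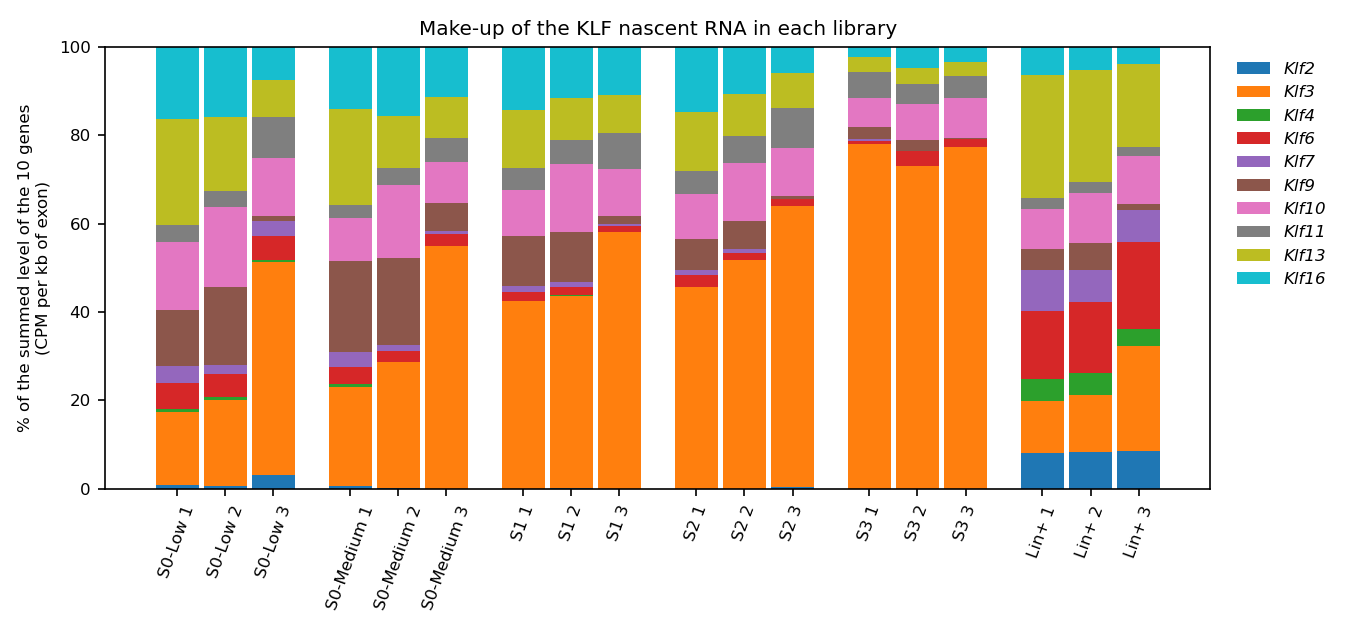
Share of each of the 10 KLF genes in their summed level (CPM per kb of exon, in percent) in each of the 18 libraries, as stacked bars that add up to 100%. Klf3 takes 72.9% to 78.1% of the bar in the 3 S3 libraries. In Lin+ Klf13 takes the largest mean share (24.0%), and Klf2, Klf4, Klf6 and Klf7 take visible shares.

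The replicate number went with large differences in some KLF genes. Klf3 was highest in replicate 3 in 6 of 6 populations, at 1.64 to 5.89 times the mean of replicates 1 and 2, which 3.24% of the 17755 genes also did. Klf9 was lowest in replicate 3 in 6 of 6 populations, by 2.49 to 8.001 times, which 4.35% of genes also did. Klf11 was highest in replicate 3 in 5 of 6 populations, and Klf10 and Klf6 each in 4 of 6. The share of all genes with 4 or 5 of 6 was not counted. When the libraries numbered 3 were left out in all populations, Klf3 (log2 fold change 4.93), Klf10 (1.66) and Klf11 (3.35) were still called higher in S3 than in S0-Low, with adjusted p of 7.85e-06, 0.0076 and 0.000102, and Klf16 was not (0.65, adjusted p = 0.127). What set replicate 3 apart was not tested.

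**Figure D4:**
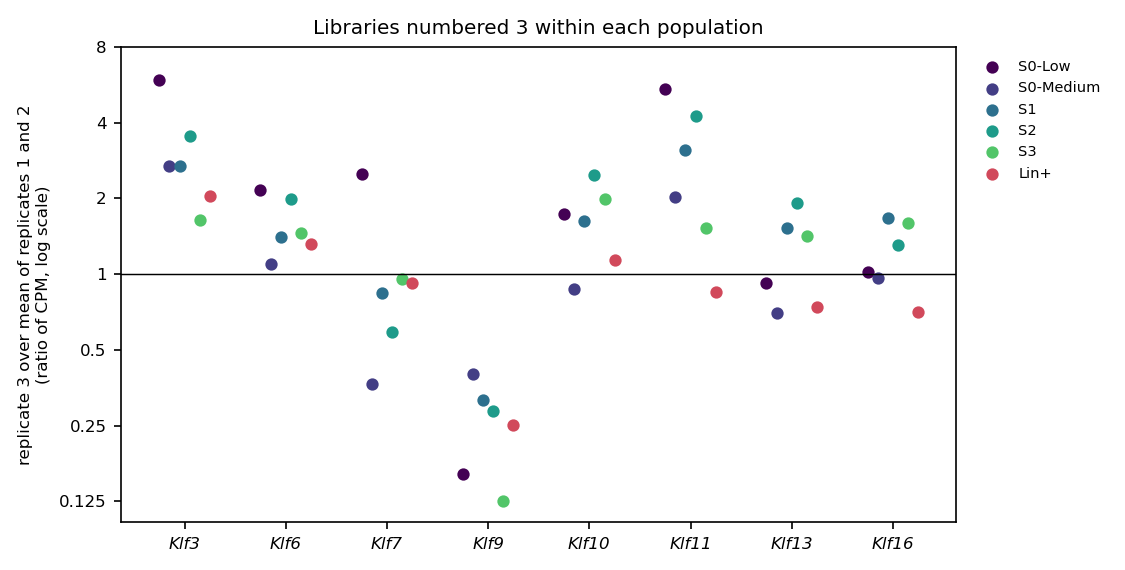
Ratio of the CPM in replicate 3 to the mean CPM of replicates 1 and 2 in each of the 6 populations, on a log scale, for the 8 KLF genes with counts in every library. All points of Klf3 lie above 1 and all points of Klf9 lie below it.

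Klf3, Klf10 and Klf11 varied together over the 15 erythroid libraries. Pearson's r of log2(CPM + 0.5) was 0.97 for Klf3 and Klf11, 0.93 for Klf10 and Klf11 and 0.91 for Klf3 and Klf10, and Klf4 and Klf7 reached 0.76. Klf9 ran against Klf6 (-0.62) and Klf11 (-0.60). These are descriptions over libraries that share populations and replicate numbers. Among 12312 genes over the 18 libraries, the genes most like Klf3 were Tspan8 (r = 0.99), Slc22a4 (0.98) and Mylk3 (0.98), and those most like Klf6 were Parp12 (0.92), Cxcl10 (0.91) and Oasl2 (0.91). Fam33a (0.98), 4632419I22Rik (0.98) and Lsm14a (0.96) were nearest to Klf10, and Tmx1 (0.98), Otub2 (0.97) and Mcart1 (0.97) to Klf11.

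The relatives outside the set were the other KLF and SP factors, of which 9 of 16 could be tested in the erythroid libraries. Between S0-Low and S3, 4 were higher and 1 lower: besides Klf1 these were Sp2 (log2 fold change 2.50, adjusted p = 0.000288), Sp3 (1.94, adjusted p = 0.0012) and Sp4 (1.82, adjusted p = 0.00168) on the higher side and Klf12 on the lower. Klf12, a CtBP-binding repressor, went from 16.6, 4.02 and 6.39 CPM to 0, 0.135 and 0 CPM. The median of these 9 was 1.82, beside -0.54 over all genes, of which 13.4% were higher and 22.4% lower. Sp3 and Sp4 were named after their values were seen, to complete the count.

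Of 13 KLF cofactors, 3 rose and 2 fell between S0-Low and S3, with a median log2 fold change of 0.28. That is near the 35.8% of all genes called in this comparison (13.4% higher, 22.4% lower), and nothing about the list is read from it. Ctbp1, the partner of KLF3, was 2.33-fold higher (log2 fold change 1.22, SE 0.31, adjusted p = 0.00754), at 181, 147 and 161 CPM in S0-Low and 308, 365 and 468 CPM in S3. The acetyltransferase genes Ep300 (2.73-fold, adjusted p = 0.00267) and Crebbp (log2 fold change 1.14, adjusted p = 0.00773) were higher too. Ctbp2 and Fhl3, a LIM-domain partner of KLF3, were the 2 that fell, Fhl3 from 24.4 to 36.5 CPM to at most 1.71 CPM. The Sin3 genes were not called (Sin3a log2 fold change 0.65, adjusted p = 0.124, and Sin3b -0.45, adjusted p = 0.229). Crebbp and Ctbp2 were likewise named after their values were seen. Genes of this and the other lists were followed under the main settings only. How their calls depend on the scaling was not tested.

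The genes of TGF-beta signalling, a pathway that induces Klf10 and Klf11 elsewhere, included 0 of 11 that rose and 8 that fell, with a median log2 fold change of -1.63, against 13.4% of all genes higher, 22.4% lower and a median of -0.54. The stem and progenitor markers fell over the same populations, from a sum of 1695 to 2457 CPM in S0-Low to 28.3 to 29.5 CPM in S3, as did the neutrophil markers, and their part in these counts was not tested. The receptor gene Tgfbr2 had 103, 83.8 and 287 CPM in S0-Low and 0, 0 and 0.115 CPM in S3, with a mean of 134 ± 59.9 CPM in Lin+ (SD, n = 3), and the corepressor gene Tgif1 10.4 to 29.6 CPM and at most 0.135 CPM. Of 7 genes of the MEK5, ERK5 and MEF2 arm that lies upstream of Klf2 and Klf4 in other cells, 0 rose and 3 fell (median -1.06, beside the same 13.4%, 22.4% and -0.54 over all genes), among them Mef2c (193 to 501 CPM in S0-Low, at most 0.947 CPM in S3) and Mef2d (3.12-fold lower, adjusted p = 0.00963). Of 6 glucocorticoid-responsive genes, 0 rose and 2 fell, near the 35.8% of all genes called and with a median of -0.42 beside -0.54, namely Fkbp5 (4.58-fold lower, adjusted p = 0.0392) and Zbtb16 (71.5 to 271 CPM in S0-Low, at most 0.721 CPM in S3).

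Of 3 genes described as repressed by KLF3 in erythroid cells, Klf8, Lgals3 and Fam132a, 0 were called in either direction by edgeR (0 of 3 also at an unadjusted p under 0.05). Of all genes 35.8% were called, and nothing is read from so short a list. The summed level of the 3 genes was 15.9 to 22.9 CPM in S0-Low and 0.0757 to 19.0 CPM in S3. Of 13 immediate early genes that could be tested, 5 rose and 2 fell (median 1.495), against 13.4% and 22.4% of all genes and their median of -0.54. Dusp1 (43.0-fold, adjusted p = 3.47e-05) and Btg2 (37.8-fold, adjusted p = 0.00136) rose most, and the list of 14 summed to 161 to 317 CPM in S0-Low and 1454 to 2551 CPM in S3. Klf6 and Klf10 are themselves often counted as early response genes, and the part of such a response in their levels was not tested.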

How the data were processed

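The authors made stranded libraries by PCR without molecular identifiers, quantified reads with Kallisto (kallisto 0.43.0 and GRCm38 in the submitters' processing notes) and deposited whole-number counts per gene, not normalized and not pooled. The transcript set, the treatment of introns and the strand setting are not given in the sources used here. Libraries were grouped by the population and replicate number in the labels.

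The test was that of edgeR 4.0.16 in R 4.3.3 (TMM, filterByExpr, glmQLFit and glmQLFTest, two-sided, population as the only factor, Benjamini-Hochberg adjustment over all tested genes). The 15 erythroid libraries were fitted together for comparisons among them (16555 genes), and all 18 for Lin+ (17755 genes). Standard errors are the log2 fold change divided by the square root of F. The pseudocount for log2 values was 0.5 CPM. Figures used Python 3.11.15 and matplotlib 3.10.9. Depth was 9452476 to 40567976 counts per library, and the floor of 3 counts per library covers counting error only. Replicates of every population differed far beyond counting noise, so that none was counted as a repeat. Over the 15 libraries edgeR's common coefficient of variation was 0.795. The test was also run on simulated counts, and the outcome is not reported here.

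Deviations from the group means correlated by more than 0.1 in each of 3 same-numbered pairs for S0-Medium and S0-Low (0.245 to 0.28), S1 and S0-Medium (0.342 to 0.386) and S2 and S1 (0.24 to 0.349), so the numbers were taken to pair these samples; a replicate block changed no call of a KLF gene there. For S3 and S2 the correlations were 0.0996 to 0.207, with 2 of 3 pairs over 0.1, and for Lin+ and S0-Low 0.0598 to 0.119, with 1 of 3. For the comparisons of S3 with S0-Low and with Lin+ they were 0.0229 to 0.0942, with 0 of 3 each. As not every pair passed 0.1, the numbers were not taken to pair these samples.

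The 10 genes and all lists were chosen with earlier results of these data known. Every one of the 10 is named. From each other list the 2 highest and 2 lowest called genes in S3 against S0-Low were named, if their mean reached 100 normalized counts in the higher population; genes most like a KLF gene are the 3 with the highest Pearson correlation. Not every list that was counted is reported here. Promoter sequences come from RefSeq (GRCm38.p6), with 8 of 10 genes matched (Klf10 and Klf16 were not). Exon lengths and overlaps come from a gene annotation of an earlier build and were used without coordinates. Alternatives were DESeq2 1.42.0, RLE factors, library totals, no filter, 10 or more counts in each library compared, a replicate block, only the compared populations, all 18 libraries, a robust fit, globin genes left out and each library left out, and, chosen after seeing the data, the libraries numbered 3 left out.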

Additional observations from a re-analysis of the deposited data

How the results depend on the processing

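Between S0-Low and S3 the number of KLF genes called higher, 4 in the main analysis, was 1 with library totals, 2 when 10 counts were required in each compared library, 2 with only the compared populations, and 1 to 4 with 1 library left out. The number called lower, 1 in the main analysis, was 2 with library totals, 0 with at least 10 counts in every library, which leaves Klf4 untested, and 0 to 1 with 1 library left out. From S2 to S3 the number higher, 0 in the main analysis, was 1 with DESeq2, 1 without a filter, 2 with the replicate block (Klf3 and Klf10, although the numbers do not pair these samples by the rule used), 0 to 1 with 1 library left out and 2 with the libraries numbered 3 left out. Of all genes, 3.26% were higher at that step in the main analysis, 8.5% with DESeq2, 2.89% without a filter and 7.3% with the replicate block. For Lin+ against S0-Low the number of KLF genes higher was 0, then 1 with DESeq2, 1 with the replicate block (Klf6) and 2 with only the compared populations. Of all genes, 0.496% were higher there in the main analysis, 2.87% with DESeq2 and 1.28% with the replicate block. For Lin+ against S3 the number higher was 3, then 5 with library totals (40.1% of all genes were then higher, against 28.2%) and 1 with at least 10 counts in every library, which leaves Klf2 and Klf4 untested. The test of any difference called 4 genes, and 2 with library totals (Klf3, which remained, and Klf4, which was gained). With the longest transcript as length, 6 of 10 genes kept their place in the order of Lin+. With Spearman in place of Pearson correlation, 1 of the 3 genes most like Klf3 and 1 of those most like Klf6 remained, and 0 of those most like Klf10 and 0 of those most like Klf11. Values that changed sign were never called: Klf9 in S3 against S0-Low was -0.46 with library totals and -0.26 to 0.82 with 1 library left out, Klf13 was -0.32 with library totals, and Klf3 in Lin+ against S0-Low was -1.35 to 0.46 with 1 library left out (0.46 without S0-Low replicate 3) and 0.029 with the libraries numbered 3 left out. The replicate block also ended the call of Klf2 in Lin+ against S3 (adjusted p = 0.0507) and gave one for Klf9 there (adjusted p = 0.0349); it changed no call of a single gene between S0-Low and S3. Of 596 further values at the steps between neighbours, 39 changed sign and 0 were called. The causes were not tested. Depth limits Klf2 and Klf4, whose counts were at or near 0 in most erythroid libraries.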
